A study of Scomber scombrus with 32 samples.

Results

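Cultures of Mack1, a cell line grown from the muscle of Atlantic mackerel (Scomber scombrus), were compared in serum reduction between the stage labelled p77, after immortalization, and the stage labelled p27, before it. The libraries were chosen by label: all 3 p77 and all 3 p27 libraries of Mack1 in serum reduction, 6 of the 32 libraries of the series, with every gene of the count table taken in. Both groups are labelled muscle stem cell and batch 1. At either stage cells were first expanded in Leibovitz's L-15 medium with 20% fetal bovine serum and 1 ng/mL of fibroblast growth factor 2, and once confluent they were fed regularly with L-15 containing 2.5% serum and no growth factor listed. The same stages were also sampled in proliferation, serum starvation and lipid loading, 3 libraries per group. Proliferation and lipid loading are listed with 20% serum and 1 ng/mL of the growth factor, and serum starvation with no value for either. Serum and growth factor thus differ between serum reduction and lipid loading too. The comparison asks how a continuous line differs from its own earlier stage once it is placed in the medium used for muscle differentiation. How the line became immortal was not given in the sources used here. Mack1 is a single line, and the labels call the libraries of a group experimental replicates without tying them to separate cultures. The p-values therefore measure the spread between these libraries, which may be technical.

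Muscle precursors divide while serum is rich and leave the cell cycle when it is withdrawn. MyoD and Myf5 commit a cell to the muscle lineage, myogenin starts terminal differentiation, and the cells then fuse into myotubes and build sarcomeres, the contractile units of muscle. Sarcomere proteins and the enzymes that fuel them exist in versions typical of fast and of slow or cardiac muscle. Bony fishes also carry many genes as duplicate copies from an ancient genome duplication, usually written with a final a and b.

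The 6 libraries held 30.8, 23.6 and 22.3 M counts in p77 cultures and 29.7, 32.01 and 29.8 M in p27 cultures. Levels are given as CPM, the counts of a gene relative to the library total after scaling by edgeR's TMM method, so they compare libraries and not genes of unequal length. Fold changes are log2 values of p77 over p27, from edgeR's quasi-likelihood test with Benjamini-Hochberg adjustment. The test gives no SE. The SE shown is the absolute log2 fold change divided by the square root of the test's F statistic. It is approximate, above all for genes near 0 counts. Genes with an adjusted p below 0.05 are called changed. Of 15683 genes tested, 2311 rose (14.7%) and 2530 fell (16.1%), 30.9% together. By at least 2-fold, 510 rose (3.25%) and 821 fell (5.23%). The 3 p77 libraries all lay above the 3 p27 libraries for 3978 genes (25.4%) and all below them for 3702 (23.6%), and the median log2 fold change of all tested genes was 0.02. Among the libraries of the other culture states 1 stood apart from its group, p77 serum starvation replicate 1. Comparing gene counts between pairs of libraries gave it a chi-square, divided by the degrees of freedom, of 84.1 and 80.6 against the others of its group. Those differed from each other by 6.32, so most results on serum starvation are given with and without this library. The test takes its spread from all 24 Mack1 libraries together, that one included. The serum reduction results were not refitted with that library alone left out. With the 6 serum reduction libraries fitted by themselves, 5791 of 14391 genes were called. In bulk RNA, fewer cells of a type and less RNA per cell cannot be told apart.

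**Figure D1:**
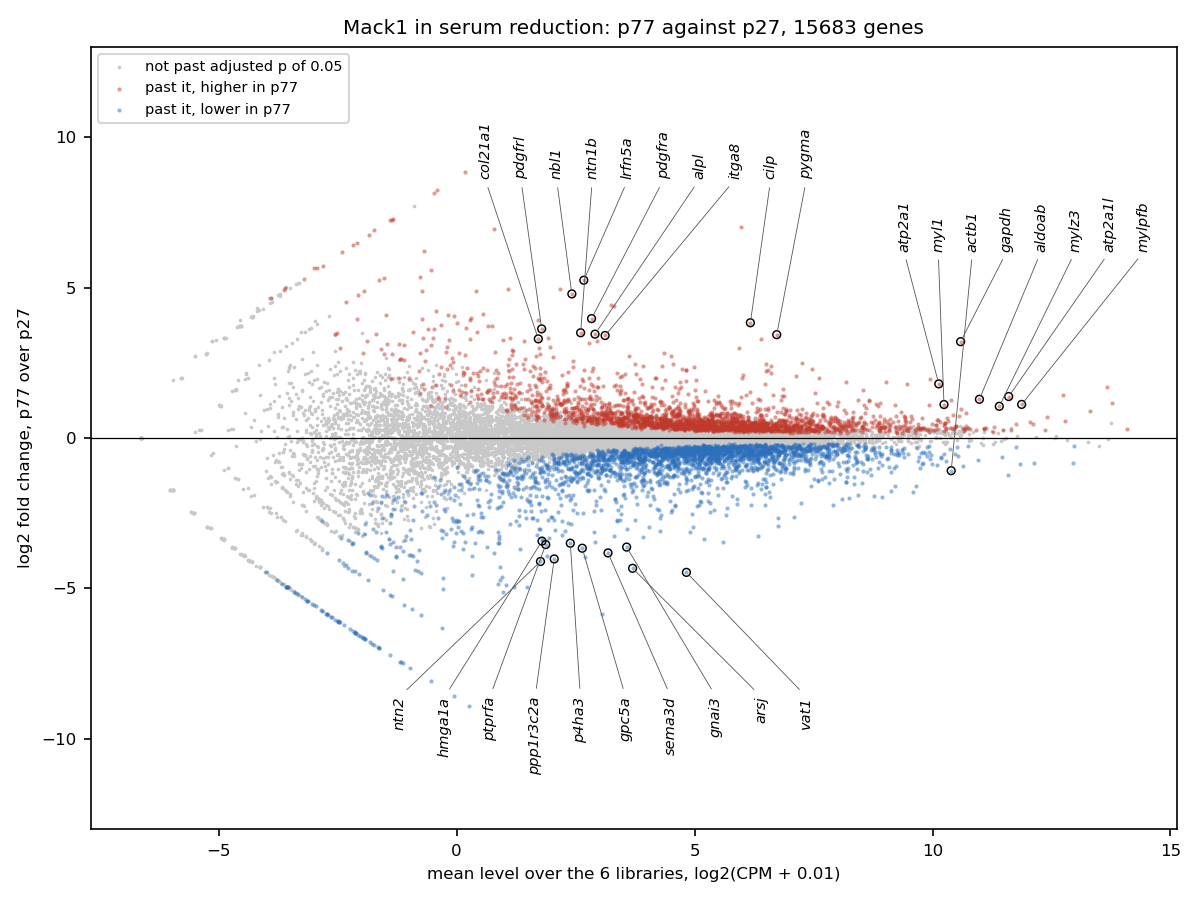
Each point is 1 of the 15683 tested genes, with its mean level over the 6 libraries on the x axis (log2 of CPM plus 0.01) and the log2 fold change of p77 over p27 in serum reduction on the y axis; coloured points passed the test. Abundant muscle genes such as gapdh, atp2a1 and mylpfb lie above 0, and actb1, which encodes a cytoplasmic actin, lies below it at -1.09.

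The labelled cell type was set against marker genes first. Transcripts of differentiated skeletal muscle were abundant at both stages. The fast muscle alpha-actinin actn3b averaged 2394 ± 67.5 CPM in p77 cultures and 1926 ± 321 CPM in p27 cultures (SD, n = 3 each), and the muscle creatine kinase ckma averaged 13216 ± 249.9 CPM in p77 cultures and 7164 ± 1144 CPM in p27 cultures. MyoD (myod1) was present at 44.2, 47.2 and 40.3 CPM in p77 cultures, against 31.8, 32.8 and 30.7 CPM in p27 cultures. The satellite cell marker Pax7 was near or at 0: pax7a had no count in any p77 library, and in p27 cultures it stood at 0.560, 0.261 and 0.394 CPM. Myf5 (myf5), also taken here as a satellite cell marker, went the other way and was higher in p77 cultures. It stayed at a few CPM or less, as given below. The cultures thus carried the transcripts of differentiated muscle, whereas Pax7, the defining gene of muscle stem cells, was barely detected.

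Of the other cell types counted in this paragraph, markers were low apart from those of fibroblasts. The smooth muscle list (11500 to 12386 CPM summed per library) and the fat storage list (3607 to 3789 CPM) were not low either and are described below. Among all tested genes 14.7% rose and 16.1% fell, the shares to set beside the calls in this paragraph. Summed over the list, 16 macrophage and leukocyte genes held 25.8 to 27.9 CPM in p77 cultures, against 73.4 to 86.4 CPM in p27 cultures, and 8 and 5 of them had no count at these stages. Of 6 tested, 2 fell, 1 of which (csf1rb) lost its call without p27 replicate 1 or p77 replicate 1 or 2 (largest edgeR adjusted p = 0.084). The integrin itgb2 made up most of the sum, with 18.9, 19.4 and 19.1 CPM in p77 cultures, against 77.7, 66.1 and 68.9 CPM in p27 cultures (log2 fold change -1.89 ± 0.09, edgeR adjusted p = 1.53e-14). The 13 epithelial genes summed to 16.5 to 21.1 CPM in p77 cultures and 60.5 to 74.2 CPM in p27 cultures, with 7 and 5 at 0. Of 6 tested, 3 fell, led by the keratin krt18a.1 (log2 fold change -2.09 ± 0.17, edgeR adjusted p = 2.59e-10). Another, evpla, lost its call without p27 replicate 1 or any 1 p77 library (largest edgeR adjusted p = 0.0753). Endothelial genes summed to 8.53 to 10.99 CPM in p77 cultures and 5.52 to 10.4 CPM in p27 cultures, with 1 of 7 tested higher, sox17. Its call was lost in 6 of the alternative analyses. Neural and Schwann cell genes gave 1 lower of 4, genes of cartilage and bone 2 higher and 1 lower of 6, and genes of pigment cells and neural crest 1 higher and 2 lower of 8, with 1 lower without p27 replicate 1 or p77 replicate 1 or 2. Fibroblast and tenocyte genes, which include abundant collagens, summed to 21503 to 22552 CPM in p77 cultures and 21539 to 25547 CPM in p27 cultures. Of 19 tested, 3 rose and 3 fell, with 5 higher without p27 replicate 1. With all libraries both shares were 15.8%, near those of all tested genes. The part of these marker genes in the results that follow was not tested.

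Among the regulators of muscle fate, Myf5 rose, MyoD rose modestly and Pax7 fell, while myogenin did not pass. Myf5 (myf5) stood at 1.38, 2.15 and 2.08 CPM in p77 cultures, against 0.315, 0.0653 and 0 CPM in p27 cultures (log2 fold change 3.83 ± 0.72, edgeR adjusted p = 0.000235). All 3 p77 libraries were above all 3 p27 libraries, as in 25.4% of all tested genes, at levels of a few CPM or less. MyoD (myod1), whose levels are given above, had a log2 fold change of 0.47 ± 0.09 (edgeR adjusted p = 0.000122). With no count in p77 cultures, pax7a was at least 9.18-fold lower than in p27 cultures, computed against a floor of 3 counts per group (edgeR adjusted p = 0.00201); the bound covers counting error only. Myogenin (myog) was at 225, 236 and 233 CPM in p77 cultures, against 200.01, 211 and 204 CPM in p27 cultures. Its groups did not overlap, yet the difference of 0.17 ± 0.17 was small beside the spread used by the test (edgeR adjusted p = 0.479). The related Pax3 copies pax3a (1.14 ± 0.81, edgeR adjusted p = 0.31) and pax3b (-0.25 ± 0.12, edgeR adjusted p = 0.111) did not pass either, although pax3b passed when the 6 libraries were fitted alone. None of the 6 libraries had a count for myf6, another myogenic factor.

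Of the markers of cell cycle arrest, cdkn1a and cdkn2a/b were lower in p77 cultures. The cyclin-dependent kinase inhibitor cdkn1a was at 117, 139 and 138 CPM in p77 cultures, against 171, 165 and 174 CPM in p27 cultures (log2 fold change -0.37 ± 0.09, edgeR adjusted p = 0.0032). The locus cdkn2a/b, whose products hold cells in arrest, stood at 13.1, 15.7 and 12.9 CPM in p77 cultures, against 21.1, 26.3 and 30.5 CPM in p27 cultures (log2 fold change -0.90 ± 0.21, edgeR adjusted p = 0.00144). In both genes, as in 23.6% of all tested genes, every p77 library lay below every p27 library. The proliferation marker mki67 was higher, at 66.7, 54.1 and 62.1 CPM in p77 cultures, against 47.2, 46.7 and 46.5 CPM in p27 cultures (log2 fold change 0.38 ± 0.11, edgeR adjusted p = 0.011), a call lost without p77 replicate 1 (edgeR adjusted p = 0.0752). Telomerase (tert) averaged 1.95 ± 0.818 CPM in p77 cultures and 1.18 ± 0.811 CPM in p27 cultures and did not pass (log2 fold change 0.74 ± 0.46, edgeR adjusted p = 0.238).

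Fat markers moved in different directions. The adipocyte regulator pparg was higher, with 2.95, 3.30 and 5.75 CPM in p77 cultures, against 0.909, 0.425 and 0.251 CPM in p27 cultures (log2 fold change 2.90 ± 0.44, edgeR adjusted p = 8.8e-06). The gene plin2, which encodes a coat protein of lipid droplets, was lower, at 46.3, 51.7 and 45.9 CPM in p77 cultures, against 124, 120.2 and 129 CPM in p27 cultures (log2 fold change -1.37 ± 0.13, edgeR adjusted p = 3.29e-09). Another adipocyte regulator, cebpa, was at or under 0.446 CPM in each p77 library, against 1.19, 1.89 and 1.29 CPM in p27 cultures (log2 fold change -3.34 ± 1.02, edgeR adjusted p = 0.0146). Its call was lost without p27 replicate 2 or without p77 replicate 1 or 2 (largest edgeR adjusted p = 0.0718). The fatty acid carrier fabp4a, at 0.291, 0.0478 and 0.298 CPM in p77 cultures, against 0.839, 0.719 and 0.645 CPM in p27 cultures, passed narrowly (log2 fold change -1.75 ± 0.67, edgeR adjusted p = 0.0473), and its edgeR adjusted p was 0.0626 to 0.187 with any 1 of the 6 libraries left out. Its copy fabp4b had no count. In the wider list of fat storage and adipocyte genes, 7 of the 38 tested members rose and 6 fell, with a median log2 fold change of 0.11. These shares, 18.4% and 15.8%, were near the 14.7% and 16.1% of all tested genes. Without p27 replicate 2 or p77 replicate 1 the number lower was 3, and without p27 replicate 1 the median was 0.05. The transcription factor cebpd (1.53 ± 0.19) and the adiponectin receptor adipor2 (0.48 ± 0.07) were among those that rose.

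More sarcomere genes were higher than lower in p77 cultures. In the list, 31 of the 72 tested members rose and 11 fell, that is 43.1% and 15.3%, against 14.7% and 16.1% of all tested genes; the median log2 fold change was 0.37. The light chains of fast skeletal myosin were among the most abundant transcripts. The regulatory light chain mylpfb was at 5224, 5196 and 4997 CPM in p77 cultures, against 1980.3, 2437 and 2684 CPM in p27 cultures (log2 fold change 1.12 ± 0.15, edgeR adjusted p = 1.79e-06). The alkali light chain mylz3 was at 3646, 3743 and 3585 CPM in p77 cultures, against 1494, 1801 and 1987 CPM in p27 cultures (log2 fold change 1.05 ± 0.18, edgeR adjusted p = 5.16e-05), and the related myl1 at 1644, 1720.3 and 1605 CPM in p77 cultures, against 623, 773 and 898 CPM in p27 cultures (log2 fold change 1.11 ± 0.20, edgeR adjusted p = 9.26e-05). In all 3 light chain genes p27 replicate 1 was the lowest of the 6 libraries. Myomesin 2, which ties myosin filaments together at the M-band, had myom2a at 846, 793 and 805 CPM in p77 cultures, against 187, 237 and 246 CPM in p27 cultures (log2 fold change 1.87 ± 0.14, edgeR adjusted p = 8.59e-11). Fast-type myosin binding protein C, mybpc2b, was at 20.000, 22.8 and 25.1 CPM in p77 cultures, against 3.53, 4.12 and 4.77 CPM in p27 cultures (log2 fold change 2.45 ± 0.22, edgeR adjusted p = 2.13e-09).

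Of the sarcomere genes that fell, the one with the smallest p was the myosin light chain myl13, at 252, 270.4 and 243 CPM in p77 cultures, against 738, 889 and 987 CPM in p27 cultures (log2 fold change -1.77 ± 0.14, edgeR adjusted p = 1.12e-10). The LIM-domain protein fhl1a stood at 104, 116 and 134 CPM in p77 cultures, against 339, 326 and 340.5 CPM in p27 cultures (log2 fold change -1.51 ± 0.12, edgeR adjusted p = 1.72e-10). The next genes were chosen after their values were seen, because their products are typical of slow or cardiac muscle. The slow and cardiac troponin C gene tnnc1a had no count in p77 cultures, against 1.22, 1.18 and 1.65 CPM in p27 cultures, and was at least 30.7-fold lower (edgeR adjusted p = 0.000124). Slow troponin T, tnnt1, was at 0.401, 0.669 and 0.347 CPM in p77 cultures, against 1.82, 1.83 and 3.01 CPM in p27 cultures (log2 fold change -2.23 ± 0.44, edgeR adjusted p = 0.000373). The light chain myl2a, typical of heart and slow fibres, was at 14.2, 13.8 and 11.7 CPM in p77 cultures, against 40.2, 62.1 and 65.9 CPM in p27 cultures (log2 fold change -2.08 ± 0.20, edgeR adjusted p = 1.5e-08). Fast-type partners, chosen in the same way, were higher: troponin C tnnc2.2 (0.78 ± 0.23), troponin T tnnt3a (0.75 ± 0.21) and the light chain mylpfa (1.72 ± 0.31). Not every slow-type gene was lower, since the slow myosin heavy chain myh7ba rose (log2 fold change 0.52 ± 0.15, edgeR adjusted p = 0.0111). The skeletal actin acta1b, the most abundant sarcomere transcript, stood at 16535, 15765 and 15966 CPM in p77 cultures, against 9354, 11718 and 12992 CPM in p27 cultures and did not pass (log2 fold change 0.50 ± 0.22, edgeR adjusted p = 0.0935), whereas its copy acta1a rose (log2 fold change 1.23 ± 0.14, edgeR adjusted p = 7.35e-08). Of these, myh7ba and acta1b were also chosen after their values were seen. The slow-type and fast-type members of the list were not counted as sets. Genes chosen after their values were seen were not followed through the alternative analyses.

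The sarcomere genes summed to 56459, 53909 and 54148 CPM in the p77 libraries, against 33840.0, 40280.0 and 44089 CPM in the p27 libraries. The p77 libraries lay close together, and p27 replicate 1 stood below the other two. Without p27 replicate 1 the list's median was 0.29. With limma-trend on the deposited normalized values, 16 sarcomere genes rose in place of 31, and the calls of myl1 (limma adjusted p = 0.152) and mylz3 (limma adjusted p = 0.0603) were lost.

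**Figure D2:**
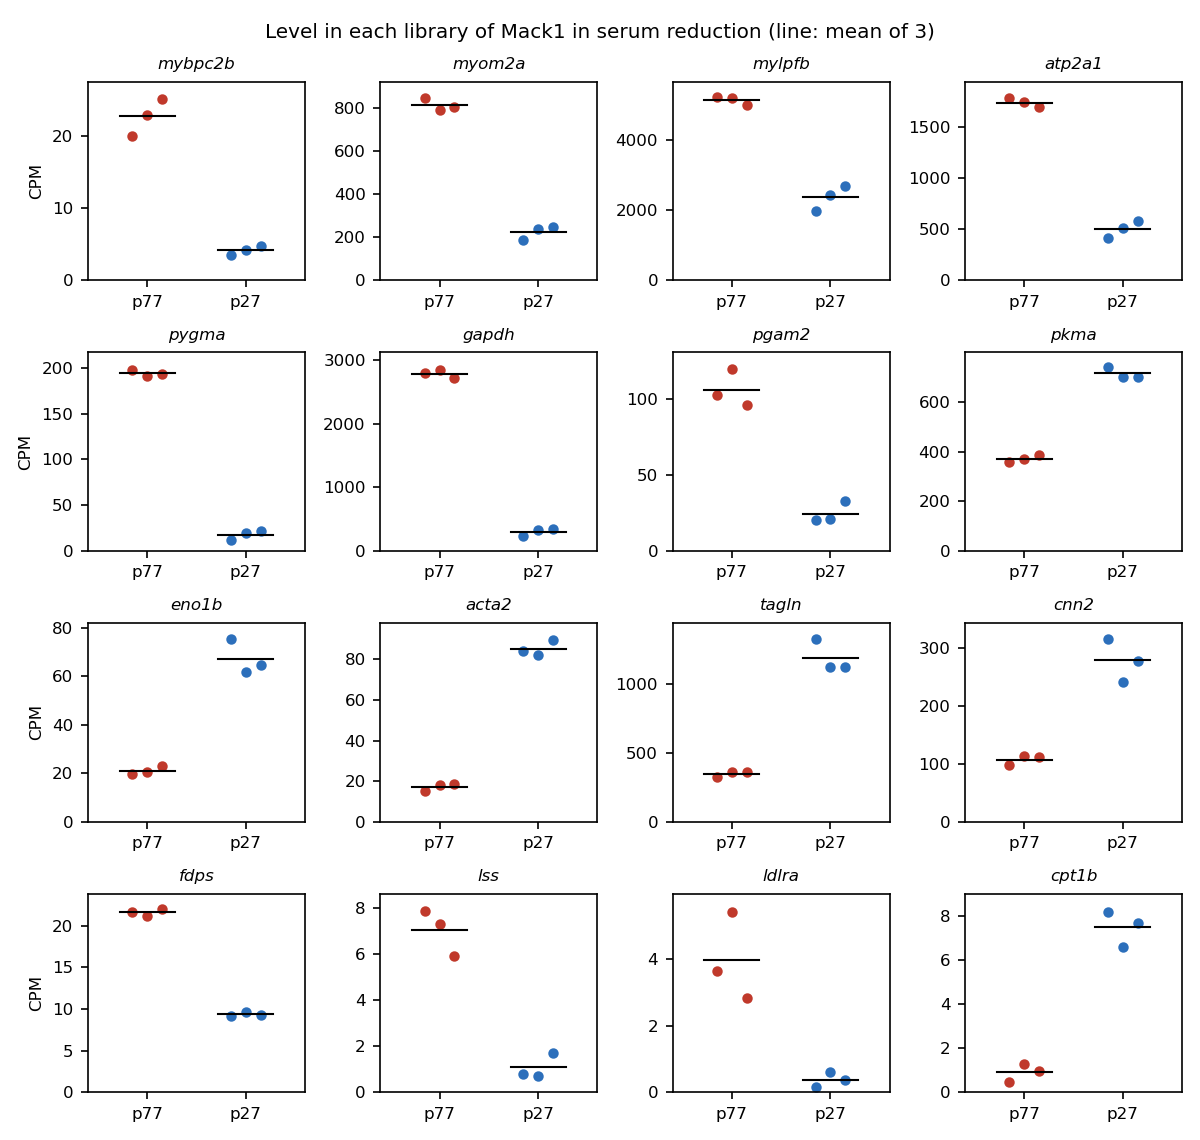
Levels of 16 genes in each of the 6 serum reduction libraries (y axis, CPM, from 0), with p77 left of p27. Points are libraries and lines are means of 3; mybpc2b, myom2a, mylpfb, atp2a1, pygma, gapdh, pgam2, fdps, lss and ldlra lie higher in p77 cultures, and pkma, eno1b, acta2, tagln, cnn2 and cpt1b lie lower.

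Genes of muscle differentiation and cell fusion were higher on balance, with a median of 0.33. Against 14.7% and 16.1% of all tested genes, 24 of the 51 tested members rose and 8 fell, or 47.1% and 15.7%. Among them was atp2a1, the calcium pump of fast muscle that refills the sarcoplasmic reticulum, at 1788, 1746 and 1696 CPM in p77 cultures, against 409.5, 513 and 579 CPM in p27 cultures (log2 fold change 1.80 ± 0.13, edgeR adjusted p = 2.44e-11). A second pump gene, atp2a1l, was at 4563, 4386 and 4520.2 CPM in p77 cultures, against 1452, 1796 and 1926 CPM in p27 cultures (log2 fold change 1.38 ± 0.16, edgeR adjusted p = 1.57e-07). Calsequestrin 1 (casq1b), which stores calcium inside the reticulum, was at 328, 318 and 286 CPM in p77 cultures, against 122, 152 and 156 CPM in p27 cultures (log2 fold change 1.12 ± 0.11, edgeR adjusted p = 1.61e-08). All p77 libraries exceeded all p27 libraries in these 3 genes, as in 25.4% of all tested genes. Cell fusion genes were among the 8 that fell, a share near that of all tested genes. The adaptor elmo1, which acts with Dock proteins on the cytoskeleton, was at 12.9, 12.1 and 13.8 CPM in p77 cultures, against 35.6, 28.5 and 30.8 CPM in p27 cultures (log2 fold change -1.29 ± 0.12, edgeR adjusted p = 1.86e-09). The adhesion protein jam2a, needed for myoblast fusion in zebrafish, was at 167, 199 and 199.8 CPM in p77 cultures, against 337, 355 and 302 CPM in p27 cultures (log2 fold change -0.81 ± 0.10, edgeR adjusted p = 3.62e-07). Its copy jam2b was higher but scarce, at 4.36 ± 0.460 CPM in p77 cultures and 1.62 ± 0.425 CPM in p27 cultures (log2 fold change 1.43 ± 0.47, edgeR adjusted p = 0.0244; chosen after its values were seen).

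At the triad, the membrane junction that couples excitation to calcium release, 17 of the 36 tested members rose and 4 fell, and the median was 0.42. These shares were 47.2% and 11.1%, against 14.7% and 16.1% of all tested genes. The calcium channel subunit cacna2d1a stood at 233, 186 and 207 CPM in p77 cultures, against 105, 121 and 125 CPM in p27 cultures (log2 fold change 0.83 ± 0.10, edgeR adjusted p = 2.63e-07). Cavin 4, a coat protein of muscle caveolae, had cavin4a at 279, 261 and 252 CPM in p77 cultures, against 142, 159 and 177 CPM in p27 cultures (log2 fold change 0.73 ± 0.11, edgeR adjusted p = 8.43e-06). The number that rose was 8 with limma-trend, and the number that fell was 1 or 2 without p27 replicate 1 or any 1 p77 library. At the neuromuscular junction 12 of the 32 tested members rose and 3 fell, 37.5% and 9.38%, with a median of 0.30. The gamma subunit of the embryonic acetylcholine receptor, chrng, was at 585, 573 and 555 CPM in p77 cultures, against 194, 243 and 277 CPM in p27 cultures (log2 fold change 1.26 ± 0.12, edgeR adjusted p = 3.79e-09).

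Of the enzymes that supply energy to muscle, more were higher than lower in p77 cultures. Of this list, 27 of the 48 tested members rose and 7 fell, 56.2% and 14.6% against the 14.7% and 16.1% of all tested genes; the median was 0.45. Muscle glycogen phosphorylase (pygma), which releases glucose units from glycogen, was at 197, 191 and 193 CPM in p77 cultures, against 11.7, 19.7 and 22.3 CPM in p27 cultures (log2 fold change 3.44 ± 0.17, edgeR adjusted p = 1.76e-13). The glycolytic enzyme gene gapdh was at 2789, 2844 and 2715 CPM in p77 cultures, against 233, 325 and 348 CPM in p27 cultures (log2 fold change 3.204 ± 0.20, edgeR adjusted p = 2.28e-12). Often used as a control gene, gapdh was 9.22-fold higher in p77 cultures. Muscle phosphofructokinase (pfkma), which commits sugar to glycolysis, was at 324, 321 and 293 CPM in p77 cultures, against 57.6, 84.2 and 95.6 CPM in p27 cultures (log2 fold change 1.98 ± 0.13, edgeR adjusted p = 7.1e-12). Aldolase A (aldoab) was at 2944, 2871 and 2819 CPM in p77 cultures, against 1002, 1196 and 1336 CPM in p27 cultures (log2 fold change 1.29 ± 0.22, edgeR adjusted p = 4.81e-05), a call lost with limma-trend (limma adjusted p = 0.0898).

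For some enzymes, duplicate or sister genes moved apart. Pyruvate kinase, the last step of glycolysis, had pkma at 356, 369 and 385 CPM in p77 cultures, against 742, 700.0 and 699.7 CPM in p27 cultures (log2 fold change -0.95 ± 0.08, edgeR adjusted p = 7.88e-10), and its copy pkmb rose (log2 fold change 0.82 ± 0.25, edgeR adjusted p = 0.0136). The pairs that follow were chosen after their values were seen. Glucose phosphate isomerase had gpib at 50.4, 50.4 and 53.5 CPM in p77 cultures, against 9.83, 12.1 and 18.95 CPM in p27 cultures (log2 fold change 1.92 ± 0.19, edgeR adjusted p = 1.32e-08), whereas gpia fell slightly (log2 fold change -0.29 ± 0.07, edgeR adjusted p = 0.0024). Muscle enolase eno3 was at 556, 574 and 539.9 CPM in p77 cultures, against 139, 182 and 226 CPM in p27 cultures (log2 fold change 1.61 ± 0.21, edgeR adjusted p = 8.21e-07), and the widely expressed enolase eno1b at 19.9, 20.4 and 23.2 CPM in p77 cultures, against 75.4, 61.7 and 64.9 CPM in p27 cultures (log2 fold change -1.67 ± 0.15, edgeR adjusted p = 1.83e-09). Other muscle-type enzymes chosen in the same way were higher, among them phosphoglycerate mutase pgam2 (2.11 ± 0.29) and AMP deaminase ampd1 (2.27 ± 0.28). The creatine kinase ckma rose (log2 fold change 0.88 ± 0.25, edgeR adjusted p = 0.0088), and its copy ckmb, at 3578 ± 36.97 CPM in p77 cultures and 2856 ± 409 CPM in p27 cultures, did not pass (log2 fold change 0.33 ± 0.22, edgeR adjusted p = 0.295).

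More genes of cell division were higher than lower in p77 cultures, mostly by less than 2-fold. In this list 49 of the 130 tested members rose and 5 fell, and the median was 0.40. These shares were 37.7% and 3.85%, against 14.7% and 16.1% of all tested genes. By at least 2-fold 10 members rose and 1 fell, and of all tested genes 3.25% and 5.23% did. The summed level of the list overlapped between the stages, at 1794, 1918 and 1887 CPM in p77 cultures, against 1805, 1700 and 1548 CPM in p27 cultures. Topoisomerase II (top2a), which untangles replicated DNA, was at 32.7, 31.6 and 34.9 CPM in p77 cultures, against 18.7, 20.02 and 14.7 CPM in p27 cultures (log2 fold change 0.89 ± 0.13, edgeR adjusted p = 6.01e-06). The genes with the smallest p were nonetheless those that fell. Cyclin D2 (ccnd2a), which drives entry into the cycle, was at 81.8, 87.8 and 74.6 CPM in p77 cultures, against 216, 169 and 175 CPM in p27 cultures (log2 fold change -1.20 ± 0.12, edgeR adjusted p = 7.06e-09). Its kinase partner cdk4 was at 55.3, 56.7 and 59.7 CPM in p77 cultures, against 85.4, 87.1 and 75.9 CPM in p27 cultures (log2 fold change -0.53 ± 0.07, edgeR adjusted p = 9e-07), and the mitotic brake wee1 at 23.3, 24.1 and 25.9 CPM in p77 cultures, against 49.8, 42.2 and 38.1 CPM in p27 cultures (log2 fold change -0.83 ± 0.10, edgeR adjusted p = 6.38e-07). The number that fell was 8 when the 6 libraries were fitted alone and 3 without p27 replicate 1. Among cell cycle inhibitors, p53 targets and senescence genes 11 of the 40 tested members rose and 6 fell, with a median of 0.25. These shares were 27.5% and 15%, the second near the 16.1% of all tested genes that fell. The kinase plk2b (log2 fold change -1.76 ± 0.16, edgeR adjusted p = 1.72e-09) and the lysosomal galactosidase glb1 (log2 fold change -0.52 ± 0.08, edgeR adjusted p = 1.58e-05) were lower. Against these, the kinase inhibitor cdkn1ba was higher (log2 fold change 1.20 ± 0.19, edgeR adjusted p = 2.21e-05). Its copy cdkn1bb, chosen after its values were seen, rose too (log2 fold change 0.54 ± 0.11, edgeR adjusted p = 0.000276).

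The extracellular matrix list split, with more genes lower than higher. Against 14.7% and 16.1% of all tested genes, 27 of its 99 tested members rose and 45 fell, 27.3% and 45.5%. The median was -0.21, with -0.09 without p27 replicate 1 and -0.32 without p27 replicate 3. Fibulin 1 (fbln1), a matrix glycoprotein, was at 163, 174 and 153 CPM in p77 cultures, against 34.4, 29.3 and 30.3 CPM in p27 cultures (log2 fold change 2.38 ± 0.09, edgeR adjusted p = 1e-16). The secreted serpin gene serpinf1 was at 169, 159 and 136 CPM in p77 cultures, against 29.5, 27.5 and 26.3 CPM in p27 cultures (log2 fold change 2.48 ± 0.14, edgeR adjusted p = 2.97e-13). The metalloproteinase inhibitor timp2a was at 51.1, 57.5 and 57.6 CPM in p77 cultures, against 278, 224 and 235 CPM in p27 cultures (log2 fold change -2.15 ± 0.11, edgeR adjusted p = 1.89e-14). The fibrillar collagen gene col1a1a, by contrast, did not pass: it averaged 7048 ± 182 CPM in p77 cultures and 7455 ± 782 CPM in p27 cultures (log2 fold change -0.08 ± 0.11, edgeR adjusted p = 0.616), chosen after its values were seen.

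Components of the basement membrane, the sheet of matrix around muscle fibres, moved in both directions. Laminin beta 1 (lamb1b) stood at 98.5, 121 and 107 CPM in p77 cultures, against 14.6, 14.99 and 11.7 CPM in p27 cultures (log2 fold change 2.98 ± 0.12, edgeR adjusted p = 1.06e-15). The laminin alpha chain lama4 was at 520.4, 519.5 and 498 CPM in p77 cultures, against 262, 234 and 220.3 CPM in p27 cultures (log2 fold change 1.102 ± 0.09, edgeR adjusted p = 1.81e-10), while lama5 was at 4.41, 3.82 and 4.02 CPM in p77 cultures, against 40.3, 30.6 and 33.3 CPM in p27 cultures (log2 fold change -3.08 ± 0.28, edgeR adjusted p = 2.07e-09). The basement membrane collagens col4a1 (2.15 ± 0.23) and col4a2 (1.99 ± 0.16), chosen after their values were seen, also rose.

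Genes of smooth muscle and myofibroblasts, which share a contractile cytoskeleton distinct from that of skeletal muscle, were lower: 8 of the 31 tested members rose and 18 fell, 58.1% of the list lower, with a median of -0.61. The share that rose was 25.8%, and of all tested genes 14.7% rose and 16.1% fell. Transgelin (tagln) was at 324, 358 and 360.2 CPM in p77 cultures, against 1328, 1125 and 1128 CPM in p27 cultures (log2 fold change -1.78 ± 0.07, edgeR adjusted p = 1.06e-15). Leiomodin 1 (lmod1b), which nucleates actin filaments, was at 20.8, 20.5 and 22.4 CPM in p77 cultures, against 111, 82.2 and 99.5 CPM in p27 cultures (log2 fold change -2.20 ± 0.11, edgeR adjusted p = 6.16e-14), and the actin-binding calponin gene cnn2 at 97.2, 112 and 111 CPM in p77 cultures, against 316, 241 and 278 CPM in p27 cultures (log2 fold change -1.38 ± 0.09, edgeR adjusted p = 1.5e-12). Smooth muscle actin (acta2), chosen after its values were seen, was at 15.2, 17.96 and 18.4 CPM in p77 cultures, against 84.0, 82.2 and 89.6 CPM in p27 cultures (log2 fold change -2.31 ± 0.20, edgeR adjusted p = 5.68e-10). The cytoplasmic actin gene actb1 was at 825, 868 and 890.4 CPM in p77 cultures, against 2021, 1643 and 1819.6 CPM in p27 cultures (log2 fold change -1.09 ± 0.10, edgeR adjusted p = 3.58e-09). Like 23.6% of all tested genes, these had all p77 libraries below all p27 libraries. Against them, the growth factor receptor pdgfra, a marker of fibroblast-like cells, rose to 11.4, 14.1 and 14.8 CPM in p77 cultures, against 0.979, 1.11 and 0.430 CPM in p27 cultures (log2 fold change 3.97 ± 0.23, edgeR adjusted p = 4.44e-13), as did the integrin itga8 (log2 fold change 3.41 ± 0.30, edgeR adjusted p = 1.1e-09). The summed level of the list was only slightly lower, 11500.0 to 11767 CPM in p77 cultures and 11815 to 12386 CPM in p27 cultures, and was dominated by desmin (desma, 6672 ± 125 CPM in p77 cultures and 4142 ± 580.4 CPM in p27 cultures), the intermediate filament protein of muscle, which rose (log2 fold change 0.69 ± 0.15, edgeR adjusted p = 0.00066; chosen after its values were seen).

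Folding factors of the endoplasmic reticulum, where secreted proteins are made, were lower. Of this list 2 of the 44 tested members rose and 20 fell, with a median of -0.29, and without p27 replicate 1 only 1 rose. With all libraries the shares were 4.55% and 45.5%, against 14.7% and 16.1% of all tested genes. The chaperone BiP (hspa5) was at 778, 799 and 701 CPM in p77 cultures, against 1256, 1154 and 1248 CPM in p27 cultures (log2 fold change -0.68 ± 0.08, edgeR adjusted p = 1.3e-07). The disulfide isomerase p4hb was at 737, 792 and 734 CPM in p77 cultures, against 1234, 1097 and 1062 CPM in p27 cultures (log2 fold change -0.58 ± 0.07, edgeR adjusted p = 2.59e-07), and the co-chaperones dnajc3b (-0.83 ± 0.09) and dnajc10 (-0.67 ± 0.08) fell too. The collagen chaperone serpinh1b, one of the most abundant transcripts, was at 5448, 6058 and 5607 CPM in p77 cultures, against 11208, 9608 and 9685 CPM in p27 cultures (log2 fold change -0.83 ± 0.08, edgeR adjusted p = 2.54e-09). Its copy serpinh1a fell as well (log2 fold change -0.52 ± 0.07, edgeR adjusted p = 2.06e-06). In the heat shock list, which holds several of the same genes, 8 of the 32 tested members rose and 6 fell, and the median was 0.01, or -0.09 to 0.10 with any 1 of the 6 libraries left out. The list's shares were 25% and 18.75%, against 14.7% and 16.1% of all tested genes. Its cytosolic member cct2, part of the chaperonin that folds actin and tubulin, rose (log2 fold change 0.39 ± 0.07, edgeR adjusted p = 7.23e-05). The number of heat shock genes that rose was 4 without p27 replicate 1 and 5 without p77 replicate 2, and 10 fell when the 6 libraries were fitted alone.

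Ribosomal protein genes of the cytosol moved up by small amounts: 28 of the 73 tested members rose, with a median of 0.25. That share was 38.4%, against 14.7% of all tested genes. By edgeR 0 fell, against 1 at an unadjusted p under 0.05 and 1 by DESeq2. With RLE size factors, either other filter on low counts or the 6 libraries fitted alone, edgeR also called 1 lower. The acidic stalk protein rplp0 was at 1187, 1206 and 1169 CPM in p77 cultures, against 861, 854 and 844 CPM in p27 cultures (log2 fold change 0.48 ± 0.07, edgeR adjusted p = 2.96e-06), and rps27.2 (0.56 ± 0.08), rps15 (0.42 ± 0.09) and rps3a (0.34 ± 0.07) rose by a similar step. The count depended on the libraries: 17 rose without p27 replicate 1 or without p77 replicate 2, and 54 when the 6 libraries were fitted alone. For the proteasome, which degrades proteins, 1 of the 32 tested members rose and 9 fell (median -0.13). These shares were 3.125% and 28.1%, against 14.7% and 16.1% of all tested genes. The number lower was 5 without p27 replicate 3 or p77 replicate 1 and 14 in the fit of the 6 libraries. The rising gene lost its call without p27 replicate 1. The subunit psmd2 (-0.30 ± 0.06) and the activator psme2 (-0.63 ± 0.12) fell, as did psmd8 (-0.44 ± 0.09) and psma6a (-0.89 ± 0.14).

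**Figure D3:**
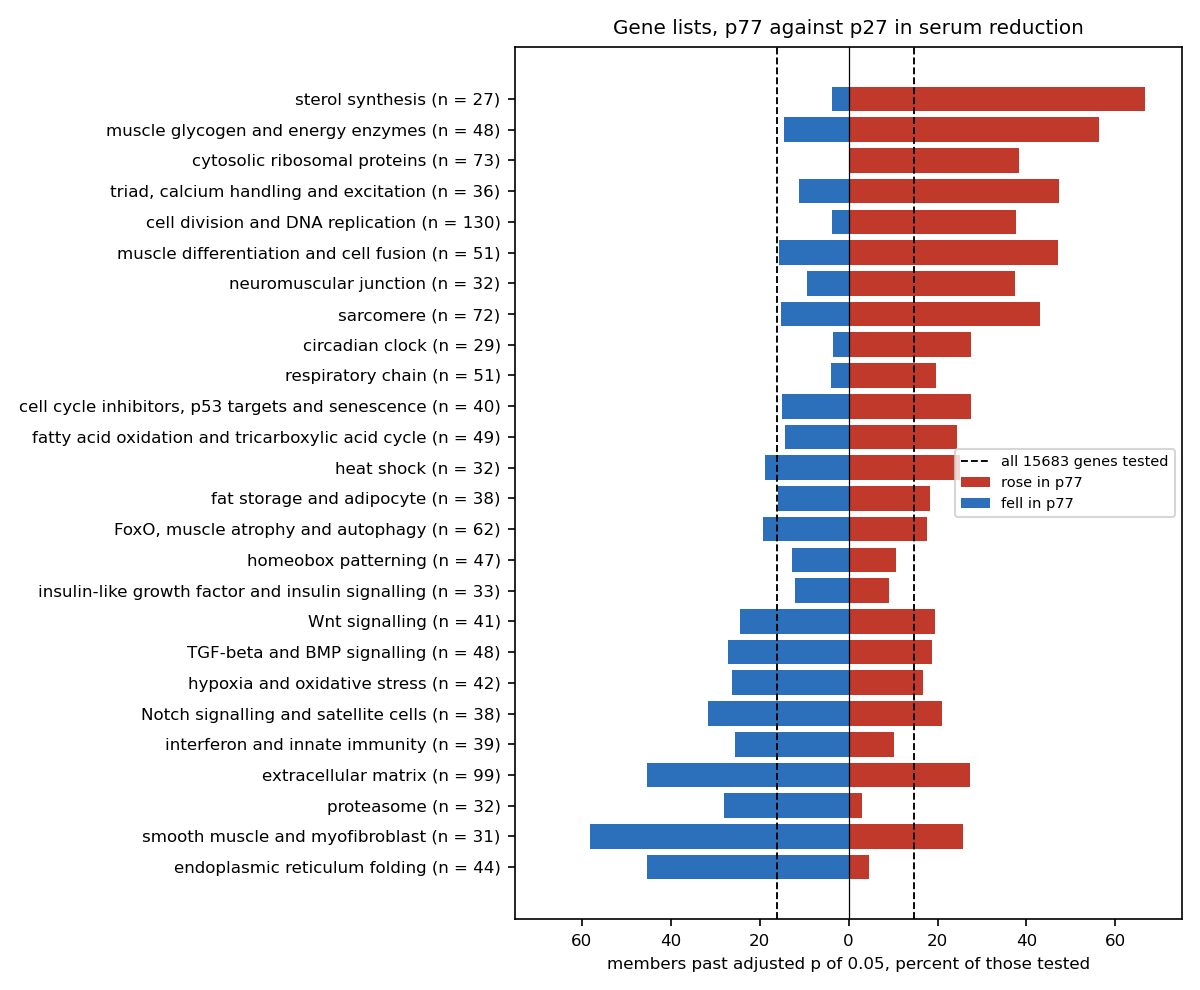
Members of each gene list that rose or fell in p77 relative to p27 cultures in serum reduction, as a percentage of the list's tested members. Dashed lines mark the 14.7% of all tested genes that rose and the 16.1% that fell; sterol synthesis had the highest share of risers and smooth muscle genes the highest share of fallers among lists of 10 or more tested genes.

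Sterol synthesis had the highest share of rising genes of the lists with at least 10 tested members. Of its genes 18 of the 27 tested members rose and 1 fell, 66.7% and 3.70%, with a median of 0.64. Of all tested genes 14.7% rose and 16.1% fell. The synthase hmgcs1, early in the pathway, was at 166, 157 and 151 CPM in p77 cultures, against 74.8, 90.9 and 86.1 CPM in p27 cultures (log2 fold change 0.91 ± 0.10, edgeR adjusted p = 1.06e-07). Further along, fdps was at 21.7, 21.2 and 22.1 CPM in p77 cultures, against 9.13, 9.70 and 9.28 CPM in p27 cultures (log2 fold change 1.21 ± 0.12, edgeR adjusted p = 6.2e-09). The cyclase lss, which closes the sterol ring, was at 7.83, 7.31 and 5.90 CPM in p77 cultures, against 0.805, 0.719 and 1.72 CPM in p27 cultures (log2 fold change 2.70 ± 0.29, edgeR adjusted p = 5.31e-08), and nsdhl, which acts after it, at 8.12, 7.45 and 7.79 CPM in p77 cultures, against 1.71, 2.48 and 2.36 CPM in p27 cultures (log2 fold change 1.83 ± 0.21, edgeR adjusted p = 1.22e-07). All p77 libraries lay above all p27 libraries in these 4 genes, as in 25.4% of all tested genes. Other genes, chosen after their values were seen, did not follow: the reductase hmgcra, a main control point, averaged 124 ± 6.87 CPM in p77 cultures and 111 ± 9.80 CPM in p27 cultures and did not pass (log2 fold change 0.15 ± 0.11, edgeR adjusted p = 0.306). The copies of the low-density lipoprotein receptor moved apart, with the scarce ldlra higher (log2 fold change 3.34 ± 0.86, edgeR adjusted p = 0.00501) and the more abundant ldlrb lower (log2 fold change -0.60 ± 0.11, edgeR adjusted p = 8e-05).

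In fatty acid oxidation and the tricarboxylic acid cycle 12 of the 49 tested members rose and 7 fell, with a median of 0.04. These shares were 24.5% and 14.3%, against 14.7% and 16.1% of all tested genes. Without p27 replicate 1, 6 rose, and the median ran from 0.02 to 0.07 with any 1 library left out. The carnitine transferase cpt1b, which admits fatty acids to the mitochondria of muscle, was at 0.474, 1.29 and 0.992 CPM in p77 cultures, against 8.19, 6.60 and 7.67 CPM in p27 cultures (log2 fold change -3.06 ± 0.36, edgeR adjusted p = 1.92e-07). The dehydrogenase acadvl, which starts the breakdown of long chains, fell (log2 fold change -0.68 ± 0.09, edgeR adjusted p = 1.91e-06). The cycle enzyme sucla2 (0.53 ± 0.07) rose. In the respiratory chain 10 of the 51 tested members rose and 2 fell (median 0.16), among them the dehydrogenase subunit sdha (log2 fold change 0.42 ± 0.08, edgeR adjusted p = 0.000162) and the ATP synthase subunit atp5f1c (log2 fold change 0.37 ± 0.10, edgeR adjusted p = 0.00528). The subunits ndufa10 (0.36 ± 0.10) and atp5po (0.32 ± 0.10) lost their calls without p27 replicate 1. The number of respiratory genes that rose was 2 to 6 without p27 replicate 1 or 2 or any 1 p77 library, 10 without p27 replicate 3, and 17 in the fit of the 6 libraries alone. At most 1 fell with any 1 library left out. In the fit of all 24 libraries the respiratory shares were 19.6% and 3.92%. Tyrosine breakdown had 5 of 8 genes higher and 1 lower (median 0.64); the lower call was lost without p27 replicate 1 or 2 or p77 replicate 1 or 3. Its first enzyme, the aminotransferase tat, was at 65.1, 69.5 and 60.8 CPM in p77 cultures, against 39.4, 31.1 and 30.1 CPM in p27 cultures (log2 fold change 0.96 ± 0.11, edgeR adjusted p = 1.35e-07). The enzymes hgd (1.46 ± 0.26) and gstz1 (1.18 ± 0.22), later in the same route, and qdpra (0.63 ± 0.09), which regenerates the cofactor that makes tyrosine, also rose.

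Signalling genes moved in either direction. For TGF-beta and BMP signalling, 9 of the 48 tested members rose and 13 fell, with a median of -0.28. These shares were 18.75% and 27.1%, against 14.7% and 16.1% of all tested genes. The matrix protein cilp, which binds TGF-beta, was at 149.6, 130.4 and 124 CPM in p77 cultures, against 9.97, 9.31 and 9.10 CPM in p27 cultures (log2 fold change 3.83 ± 0.20, edgeR adjusted p = 8.18e-14). Of the secreted BMP inhibitors, chrd was at 13.9, 19.4 and 13.99 CPM in p77 cultures, against 47.2, 39.3 and 38.1 CPM in p27 cultures (log2 fold change -1.40 ± 0.14, edgeR adjusted p = 7.73e-09), and grem2a fell too (log2 fold change -2.53 ± 0.25, edgeR adjusted p = 1.11e-08). The ligand tgfb3 fell (log2 fold change -0.98 ± 0.10, edgeR adjusted p = 1.41e-08). Another BMP inhibitor, nbl1, went the other way and was among the largest increases, at 9.98, 10.3 and 10.7 CPM in p77 cultures, against 0.280, 0.327 and 0.502 CPM in p27 cultures (log2 fold change 4.79 ± 0.26, edgeR adjusted p = 1.84e-13).

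In Wnt signalling 8 of the 41 tested members rose and 10 fell, 19.5% and 24.4%, against 14.7% and 16.1% of all tested genes. The median was -0.11, with -0.05 without p27 replicate 1 or p77 replicate 2 and -0.20 without p77 replicate 1. Of its ligands, wnt10b was at 1.93, 2.44 and 1.93 CPM in p77 cultures, against 8.67, 6.70 and 5.98 CPM in p27 cultures (log2 fold change -1.76 ± 0.17, edgeR adjusted p = 9.85e-09). The ligands wnt1 (log2 fold change -2.89 ± 0.28, edgeR adjusted p = 8.13e-09) and wnt7bb (log2 fold change -3.84 ± 0.39, edgeR adjusted p = 1.44e-08) also fell, at levels under 5 CPM. The secreted enhancer rspo3 rose, at 27.7, 21.1 and 19.9 CPM in p77 cultures, against 5.46, 6.47 and 5.77 CPM in p27 cultures (log2 fold change 1.96 ± 0.20, edgeR adjusted p = 1.24e-08). For Notch signalling and satellite cell genes, 8 of the 38 tested members rose and 12 fell, 21.1% and 31.6%, with a median of -0.18. The growth factor receptor fgfr1a (log2 fold change -1.27 ± 0.12, edgeR adjusted p = 2.59e-09) and the Notch ligand jag1b (log2 fold change -1.25 ± 0.14, edgeR adjusted p = 9.99e-08) fell. The Notch regulator numbl (log2 fold change 2.003 ± 0.19, edgeR adjusted p = 3.81e-09) and spry1 (log2 fold change 0.99 ± 0.11, edgeR adjusted p = 5.98e-08), which dampens growth factor signals, rose.

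In insulin and insulin-like growth factor signalling 3 of the 33 tested members rose and 4 fell, 9.09% and 12.1%. These shares were below the 14.7% and 16.1% of all tested genes. The regulatory subunit pik3r1 (0.78 ± 0.16) and tsc1a (0.50 ± 0.11) were higher. The kinases akt1 (-0.38 ± 0.11) and akt2 (-0.31 ± 0.09) were lower, and both lost their calls without p27 replicate 1 (edgeR adjusted p = 0.0663 and 0.103). At most 2 genes of the list fell without p27 replicate 1 or without p77 replicate 1 or 3. For FoxO, muscle atrophy and autophagy 11 of the 62 tested members rose and 12 fell, 17.7% and 19.4%, near the shares of all tested genes. The median was 0.01, or -0.01 to 0.02 with any 1 library left out, and 7 fell without p27 replicate 1. The copies tfe3a (0.63 ± 0.08) and tfe3b (0.71 ± 0.12), which switch on lysosomal genes, both rose, and the protease atg4c (-0.69 ± 0.09) and tbc1d1 (-0.85 ± 0.12) fell. Of interferon and innate immunity genes 4 of the 39 tested members rose and 10 fell, 10.3% and 25.6%. The copies socs3a (0.78 ± 0.10) and socs3b (1.20 ± 0.12), inhibitors of cytokine signals, rose, whereas the cytokine il11a (-3.34 ± 0.44) and psmb10 (-0.64 ± 0.11) fell.

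Of hypoxia and oxidative stress genes 7 of the 42 tested members rose and 11 fell, 16.7% and 26.2%, against 14.7% and 16.1% of all tested genes. The peroxide-reducing enzymes prdx1 (-0.94 ± 0.12) and gpx1b (-1.19 ± 0.11), the thioredoxin txn (-0.64 ± 0.09) and lactate dehydrogenase ldha (-0.54 ± 0.07) were lower. Levels of prdx1 were high, at 1007, 1176 and 1109 CPM in p77 cultures, against 2457, 1977 and 1876 CPM in p27 cultures (edgeR adjusted p = 1.27e-06). Of circadian clock genes 8 of the 29 tested members rose and 1 fell, 27.6% and 3.45%, with a median of 0.19. Among them bhlhe40 (1.01 ± 0.15), tefa (0.53 ± 0.07) and csnk1db (0.40 ± 0.07) rose, while npas2 fell (-0.64 ± 0.12). The number of clock genes that rose was 3 to 5 without p27 replicate 2 or 3 or p77 replicate 1 or 3. In the fit of the 6 libraries 3 fell. The median was 0.32 without p27 replicate 1 and 0.09 without p77 replicate 3. Of homeobox patterning genes 5 of the 47 tested members rose and 6 fell, 10.6% and 12.8%, both below the shares of all tested genes. Among them hoxb7a (0.61 ± 0.11) and meox1 (0.62 ± 0.13) were higher and msx1a (-1.43 ± 0.22) and dlx3b (-2.65 ± 0.58) lower. Over the markers of muscle, fat, arrest and immortalization described above, 4 of the 14 tested members rose and 6 fell, 28.6% and 42.9%.

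The next genes had the largest increases among genes with a symbol that reached 5 CPM in either group and whose libraries did not overlap. The adhesion protein lrfn5a was at 13.3, 13.5 and 10.4 CPM in p77 cultures, against 0.245, 0.294 and 0.430 CPM in p27 cultures (log2 fold change 5.25 ± 0.46, edgeR adjusted p = 6.68e-09). The guidance cue netrin 1 (ntn1b) stood at 12.6, 10.5 and 10.4 CPM in p77 cultures, against 1.26, 1.11 and 0.573 CPM in p27 cultures (log2 fold change 3.5003 ± 0.32, edgeR adjusted p = 4.27e-09), and alkaline phosphatase alpl, an enzyme of mineralizing tissue, at 13.3, 16.1 and 11.8 CPM in p77 cultures, against 0.979, 1.54 and 1.22 CPM in p27 cultures (log2 fold change 3.45 ± 0.17, edgeR adjusted p = 2.67e-14). The receptor-like pdgfrl (3.63 ± 0.51) and the collagen col21a1 (3.30 ± 0.42) followed, beside pdgfra, cilp, pygma, itga8 and nbl1.

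By the same rule, again among genes with a symbol, the largest decrease was that of vat1. The membrane protein gene vat1 was at 2.11, 2.53 and 2.78 CPM in p77 cultures, against 57.1, 50.2 and 55.8 CPM in p27 cultures (log2 fold change -4.47 ± 0.30, edgeR adjusted p = 7.1e-12). The sulfatase arsj was at 0.911, 1.58 and 1.24 CPM in p77 cultures, against 30.7, 20.6 and 22.8 CPM in p27 cultures (log2 fold change -4.33 ± 0.30, edgeR adjusted p = 1.32e-11). The gene ppp1r3c2a, whose product directs a phosphatase to glycogen, was at 0.182, 0.573 and 0.744 CPM in p77 cultures, against 7.77, 7.22 and 8.31 CPM in p27 cultures (log2 fold change -4.02 ± 0.43, edgeR adjusted p = 3.56e-08). In each of these the p77 libraries stayed under 3 CPM. The guidance cues ntn2 (-4.10 ± 0.59) and sema3d (-3.82 ± 0.45), the heparan sulfate carrier gpc5a (-3.66 ± 0.42), the G protein subunit gnai3 (-3.63 ± 0.28) and the receptor phosphatase ptprfa (-3.54 ± 0.46) fell by similar amounts. So did the collagen prolyl hydroxylase p4ha3 (-3.496 ± 0.47) and the chromatin protein hmga1a (-3.43 ± 0.31), with edgeR adjusted p at or under 4.57e-06.

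The same stage difference was set beside those in the other culture states, each from its own libraries. In proliferation 4013 genes passed (25.6%), in serum starvation 3345 (21.3%) and in lipid loading 5378 (34.3%). Of the 4841 genes called in serum reduction, 1396 (28.8%) were also called in the same direction in proliferation, 1574 (32.5%) in serum starvation and 2803 (57.9%) in lipid loading. These made up 34.8%, 47.1% and 52.1% of the genes called in those states. Opposite calls were found for 572 genes (11.8%) with proliferation, 249 (5.14%) with serum starvation and 166 (3.43%) with lipid loading. In all 4 states 221 genes were higher and 355 lower. Without p77 serum starvation replicate 1, 2706 genes passed in serum starvation. Of the genes called in serum reduction 1500 (31.0%) then shared a direction with it and 191 (3.95%) were opposite, while 220 genes were higher and 380 lower in all 4 states.

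**Figure D4:**
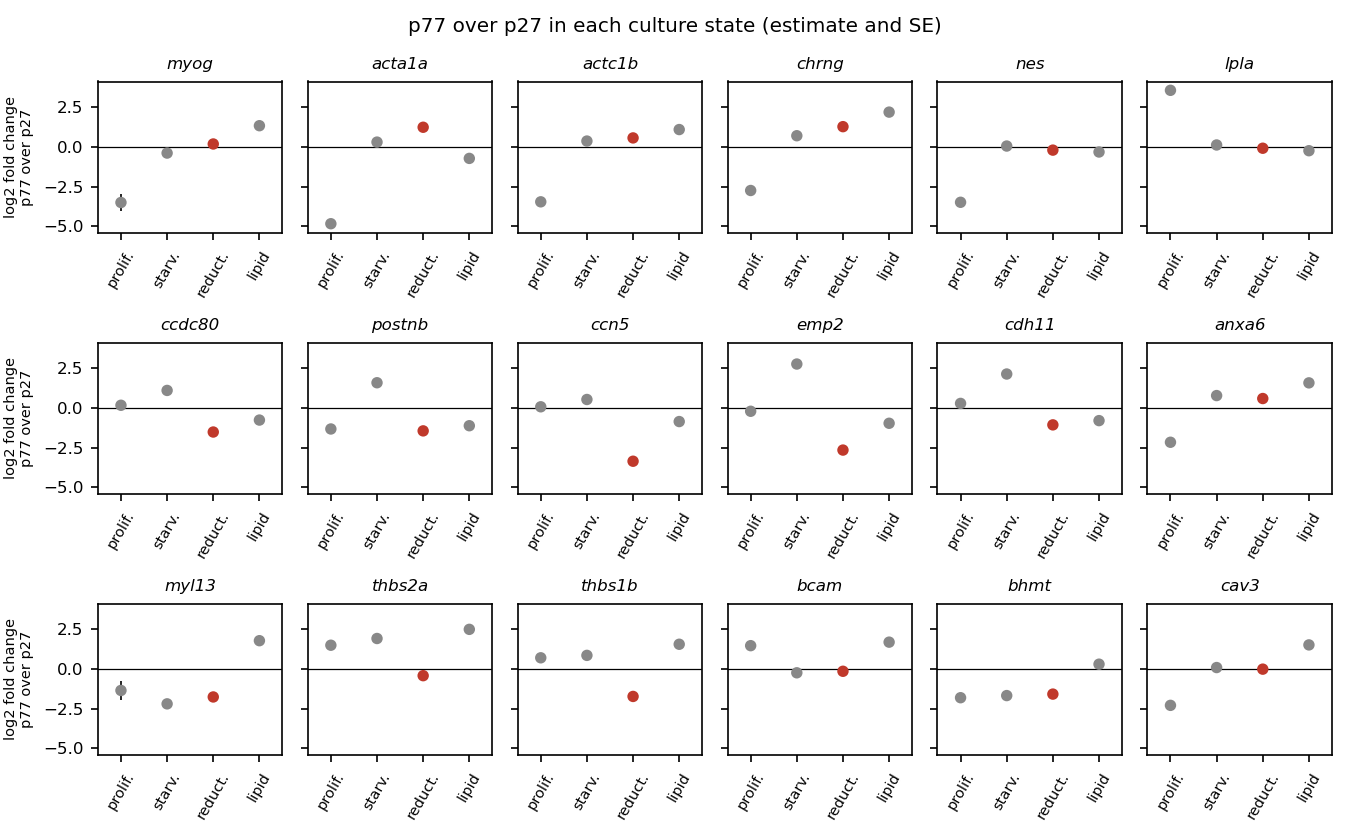
Log2 fold change of p77 over p27 (y axis) of 18 genes in the 4 culture states (x axis); serum reduction is in red, and bars are SE, mostly smaller than the points. The upper row, with anxa6, shows genes whose difference in serum reduction stands apart from that in proliferation, the rest of the middle row from serum starvation and the lower row from lipid loading.

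Tested directly, the stage difference in serum reduction differed from that in proliferation for 3555 genes (22.7%), from that in serum starvation for 2612 (16.7%) and from that in lipid loading for 2085 (13.3%). Fitted with only the groups compared, the difference from serum starvation held for 1653 genes, and the serum starvation comparison itself for 1348. Without p77 serum starvation replicate 1 the difference from serum starvation held for 2565 genes. Past all 3 tests and called in serum reduction in the same direction were 74 genes that were higher and 320 that were lower. With only the test against serum starvation refitted without that library, they numbered 76 and 327.

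Sarcomere genes showed the opposite stage difference in proliferation. There 2 of 72 were higher and 43 lower (median -1.84), against 10.5% and 15.1% of all genes; 1 was higher without p27 proliferation replicate 1 or 3 or p77 proliferation replicate 1. In lipid loading 55 were higher and 5 lower (median 1.34), against 18.6% and 15.7%, and in serum starvation 26 were higher and 13 lower (median 0.30), against 11.1% and 10.2%. In serum starvation the counts were 30 and 13 without p77 replicate 1 and 17 and 8 with its 6 libraries fitted alone. By the direct tests the serum reduction difference was above that in proliferation for 42 sarcomere genes (11.5% of all genes were) and below that in lipid loading for 47 (9.26% of all genes). The skeletal actin acta1a had stage differences of 1.23 in serum reduction, -4.83 in proliferation, 0.29 in serum starvation and -0.73 in lipid loading, the first exceeding the second by 6.06 ± 0.22 (edgeR adjusted p = 2.51e-16). Another muscle actin gene, actc1b, followed, with 0.56 in serum reduction, -3.46 in proliferation, 0.36 in serum starvation and 1.08 in lipid loading. Its difference from proliferation was 4.01 ± 0.18 (edgeR adjusted p = 1.65e-14). The receptor subunit chrng stood 4.01 ± 0.19 above its proliferation value (edgeR adjusted p = 1.7e-14). The light chain myl13 had -1.77 in serum reduction, -1.36 in proliferation, -2.20 in serum starvation and 1.76 in lipid loading. Its serum reduction value lay -3.53 ± 0.19 from its lipid loading value (edgeR adjusted p = 4.01e-12). Without p77 serum starvation replicate 1, the serum starvation differences were 0.43 for acta1a, 0.46 for actc1b and -2.06 for myl13. That of acta1a then passed (edgeR adjusted p = 0.00634), but not with all libraries (edgeR adjusted p = 0.123).

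Genes that did not pass in serum reduction could stand far apart between the stages elsewhere. Nestin (nes), an intermediate filament protein of muscle precursors and young fibres, averaged 2282 ± 86.5 CPM in p77 cultures and 2641 ± 152 CPM in p27 cultures in serum reduction (log2 fold change -0.21 ± 0.09, edgeR adjusted p = 0.0842), although it passed when the 6 libraries were fitted alone (edgeR adjusted p = 0.00782). In proliferation it averaged 49.5 ± 0.798 CPM in p77 cultures and 555 ± 49.2 CPM in p27 cultures, and the stage differences were 3.28 ± 0.13 apart (edgeR adjusted p = 2.12e-15). Lipoprotein lipase (lpla) averaged 441 ± 30.9 CPM in p77 cultures and 469.7 ± 40.7 CPM in p27 cultures in serum reduction and 228 ± 5.33 CPM in p77 cultures and 19.5 ± 5.11 CPM in p27 cultures in proliferation, a gap of -3.64 ± 0.16 (edgeR adjusted p = 4.95e-15). The membrane-binding protein anxa6, which rose in serum reduction, differed from its proliferation value by 2.75 ± 0.13 (edgeR adjusted p = 1.7e-14). The caveolin gene cav3 averaged 338 ± 5.32 CPM in p77 cultures and 343 ± 20.97 CPM in p27 cultures in serum reduction and 169.8 ± 12.1 CPM in p77 cultures and 60.1 ± 6.55 CPM in p27 cultures in lipid loading, -1.52 ± 0.11 apart (edgeR adjusted p = 8.56e-10).

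The matrix list was set beside that in serum starvation. In starved cultures 49 of 99 matrix genes were higher in p77 and 13 lower (median 0.42), whereas in serum reduction 27 were higher and 45 lower. For 49 of them the serum reduction difference was the lower one by the direct test, against 9.93% of all genes. For 15 it was the higher one, against 6.73% of all genes. Without p77 serum starvation replicate 1, 44 were higher and 18 lower in starved cultures (median 0.27). By the direct test the serum reduction difference was then lower for 53 and higher for 16. With the serum starvation libraries fitted alone 41 were higher and 6 lower. The matrix protein postnb averaged 20.4 ± 0.576 CPM in p77 cultures and 55.7 ± 3.31 CPM in p27 cultures in serum reduction and 38.7 ± 4.37 CPM in p77 cultures and 12.97 ± 1.82 CPM in p27 cultures in serum starvation. Its stage differences were -3.02 ± 0.18 apart (edgeR adjusted p = 4.19e-12). The secreted protein ccn5 (-3.88 ± 0.19), the cadherin cdh11 (-3.19 ± 0.17), the secreted ccdc80 (-2.61 ± 0.12) and the membrane protein emp2 (-5.40 ± 0.25) showed gaps of the same sign, with edgeR adjusted p at or under 7.65e-13. Without p77 serum starvation replicate 1 the gaps of these genes ran from -2.56 for ccdc80 to -5.27 for emp2, with -2.94 for postnb. From lipid loading, the thrombospondins thbs1b (-3.28 ± 0.24) and thbs2a (-2.91 ± 0.17), the methyltransferase bhmt (-1.88 ± 0.14) and the adhesion protein bcam (-1.83 ± 0.10) differed most clearly, with edgeR adjusted p at or under 6.18e-10. In serum reduction itself thbs2a fell by 0.43, a call lost without p27 replicate 1 (edgeR adjusted p = 0.072).

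Of all tested genes 10.5% were higher and 15.1% lower in proliferation, 11.1% and 10.2% in serum starvation, and 18.6% and 15.7% in lipid loading. Sterol genes were higher in p77 cultures in proliferation too (15 of 27), against 4 higher and 7 lower in serum starvation and 6 higher and 2 lower in lipid loading. In serum starvation 2 were higher and 6 lower without p77 replicate 1, and in lipid loading 4 were higher and 1 lower without p27 replicate 2 or 3 or p77 replicate 2. The direct tests placed serum reduction above serum starvation for 17 of them (6.73% of all genes; 18 of them without p77 serum starvation replicate 1) and above lipid loading for 12 (4.03%). Of 130 cell division genes 112 were higher and 3 lower in lipid loading (median 1.26), and 1 was higher and 8 lower in serum starvation (median -0.16). In proliferation 22 were higher and 4 lower (median 0.27), with 73 and 4 in the fit of its groups alone. With any 1 proliferation library left out 11 to 18 were higher. In serum starvation the counts were 2 and 11 without p77 replicate 1, and over the 6 libraries left out in turn they ran from 0 to 2 higher and from 6 to 14 lower. The direct tests placed serum reduction above proliferation for 6 cell division genes and below it for 3 (11.5% and 11.1% of all genes). Against serum starvation these counts were 35 and 2 (6.73% and 9.93%), or 43 and 2 without p77 serum starvation replicate 1. Against lipid loading they were 0 and 53 (4.03% and 9.26%). Of 31 smooth muscle genes 8 were higher and 18 lower in serum reduction, 3 and 16 in proliferation, 8 and 11 in serum starvation, and 7 and 17 in lipid loading. In serum starvation 7 were higher and 12 lower without p77 replicate 1, and in proliferation 1 was higher without p27 replicate 2.

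**Figure D5:**
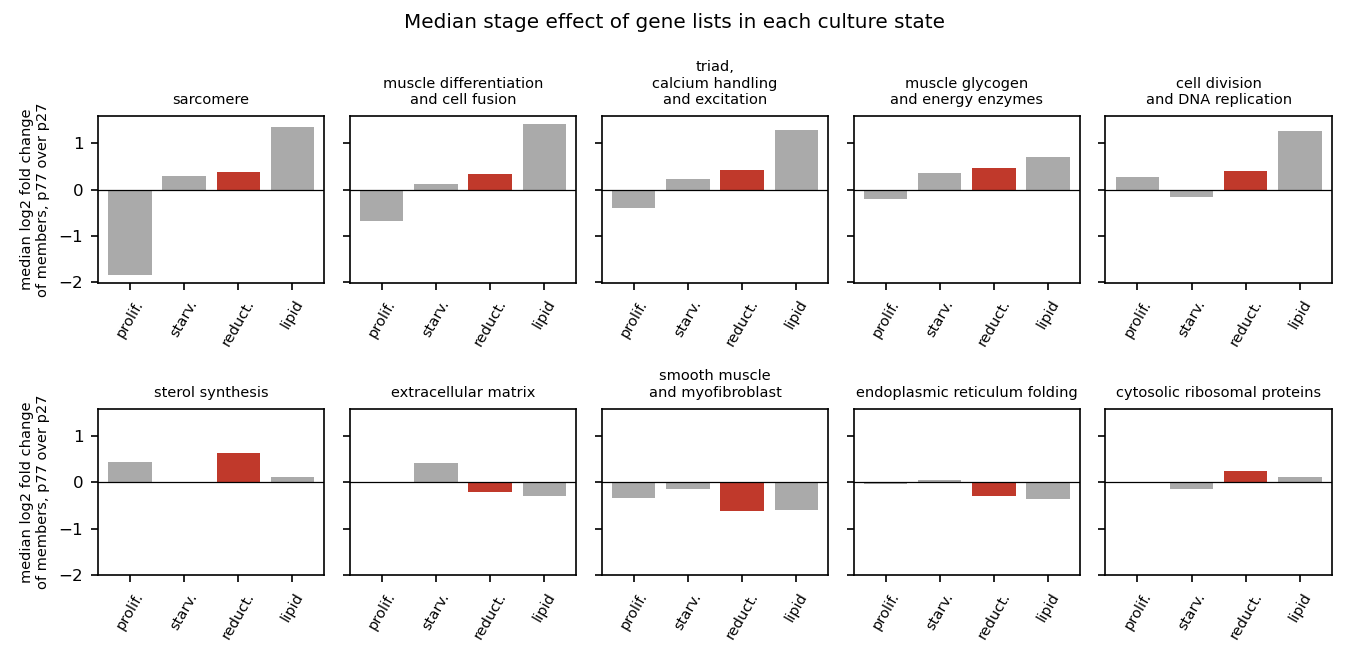
Median log2 fold change of p77 over p27 (bars, y axis) over the tested members of 10 gene lists in the 4 culture states (x axis), with serum reduction in red. Sarcomere genes run from -1.84 in proliferation to 1.34 in lipid loading, and the median of smooth muscle genes is below 0 in all 4 states.

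Duplicate gene copies were compared as pairs of symbols that differ only in a final a or b, most of which are fish duplicates. Of 711 pairs with both copies tested, both copies were called in 110, in the same direction in 78 and in opposite directions in 32. In 289 pairs 1 copy was called, and in 312 neither. Of all tested genes 30.9% were called. Both copies changed by at least 2-fold in 2 of the 32 opposite pairs. Besides the isomerase and pyruvate kinase pairs above, the guidance cue sema3aa fell (-0.78 ± 0.12) and sema3ab rose (1.11 ± 0.30). The membrane protein pmp22a fell (-1.03 ± 0.09) and pmp22b rose (0.76 ± 0.09). The focal adhesion protein tns1a rose (0.90 ± 0.12) and tns1b fell (-0.64 ± 0.12), as did pdlim5a (0.89 ± 0.17) and pdlim5b (-0.63 ± 0.09), LIM-domain proteins of the sarcomere. These pairs were chosen after their values were seen. Near-identical copies can share reads, so a split between copies may also depend on the counting, which was not tested.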

How the data were processed

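Poly(A) RNA of the Mack1 cultures was sequenced as 150 nt read pairs from libraries that were not strand-specific, per the labels' protocols. FastQC, STAR, DESeq2 and Salmon 1.10.1 appear in the submitters' processing notes, with no role. The authors deposited raw counts per gene, whole numbers by their values, and a normalized signal that equals the count divided by a size factor per library. The genome build, the annotation and the treatment of reads that match several genes were not given in the sources used here. Overlapping and antisense genes cannot be told apart in such libraries.

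Gene names are from RefSeq's table for assembly fScoSco1.1. Each of the 24189 gene numbers was found there, 14498 with a symbol and 9691 with a locus number alone.

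Counts of all 24 Mack1 libraries were fitted with edgeR 4.0.16 in R 4.3.3 (genes kept by filterByExpr, TMM scaling, group means, two-sided quasi-likelihood test), with Benjamini-Hochberg adjustment over 15683 genes and a common biological coefficient of variation of 0.137. The stage difference in each culture state, and its differences between serum reduction and the other states, are contrasts of that fit. A fold against a group without counts is a lower bound. The members and the 35 gene lists were chosen with earlier results of these data known. Named by rule were the marker genes, up to 4 members per list by p, the 10 largest changes each way at 5 CPM or more, 8 abundant genes and 6 genes per difference between states. A few of the genes named by the rule are not reported here. The procedure was tested on simulated data. Alternatives were RLE size factors, no low-count filter, a mean of 1 CPM, the 2 groups compared alone, DESeq2 1.42.0, limma-trend (limma 3.58.1) on the log2 of the deposited signal plus 1, a replicate block and each library left out. Plots used Python 3.11.15 and matplotlib 3.10.9.

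Replicates of a group differed by more than counting error: the chi-square per degree of freedom between pairs of libraries ran from 5.94 to 9.20 in p77 and from 7.74 to 27.1 in p27 cultures, so no library was taken for a repeat. In p27 cultures replicate 1 gave 18.1 and 27.1 against the other libraries, which differed from each other by 7.74. Without replicate 1 of p27, 3787 genes were called in serum reduction, the fewest with any 1 of the 6 libraries left out.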

Additional observations from a re-analysis of the deposited data

Results flagged for a closer look

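Differences of the p77 over p27 effect between serum reduction and another culture state, tested as contrasts in the edgeR fit, drew attention to the results below. The effect differed from that in proliferation for 3555 genes, from that in serum starvation for 2612 and from that in lipid loading for 2085. Each value is the log2 fold change in serum reduction minus that in the other state, and each passed at an adjusted p below 0.05.

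Of the markers, the effect on myog in serum reduction exceeded that in proliferation by 3.68 and differed by -1.15 from that in lipid loading. For myod1 it exceeded the effects in proliferation and serum starvation by 1.14 and 0.86. The arrest gene cdkn1a differed by -0.69 from proliferation and by -0.89 from lipid loading, and mki67 by -0.92 from lipid loading. For pax3b the gap from proliferation was -0.59, and for the scarce pax3a the gap from serum starvation was -3.41. Of the fat markers, fabp4a, which stayed under 1 CPM in serum reduction, differed by -3.64 from proliferation and -3.57 from lipid loading, and plin2 by -0.56 from proliferation and -0.77 from serum starvation. Without p77 serum starvation replicate 1, which stood apart from its group, the gaps from serum starvation were 0.90 for myod1, -3.59 for pax3a and -0.98 for plin2. With all libraries the pax3a gap passed narrowly (edgeR adjusted p = 0.0492), and without that library too (edgeR adjusted p = 0.0443). It did not pass when the groups compared were fitted alone (edgeR adjusted p = 0.0739).

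Against proliferation, the smallest p belonged to acta1a (6.06), nes (3.28), lpla (-3.64), actc1b (4.01), chrng (4.01) and anxa6 (2.75). Against serum starvation they belonged to ccdc80 (-2.61), emp2 (-5.40), ccn5 (-3.88), cdh11 (-3.19), postnb (-3.02) and si:busm1-163l24.3 (-3.11). Without p77 serum starvation replicate 1 the gap of si:busm1-163l24.3 was -2.85. Against lipid loading they belonged to myl13 (-3.53), bcam (-1.83), thbs2a (-2.91), thbs1b (-3.28), bhmt (-1.88) and cav3 (-1.52).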

How the results depend on the processing

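Against the 4841 genes called in serum reduction, limma-trend on the deposited signal gave 4601, RLE size factors 4839, a minimum mean of 1 CPM 4773, no filter on low counts 4689, DESeq2 5158 and the fit of the 2 groups alone 5791. With each library left out the count was 3787 to 4299, of which 1711 to 1959 were higher and 2076 to 2340 lower. The same fits gave 2972 to 3381 genes for the difference from proliferation, 1858 to 3070 from serum starvation and 1714 to 1889 from lipid loading. Fitted with only the groups compared, the difference from serum starvation held for 1653 genes in place of 2612, and the stage comparison in serum starvation gave 1348 in place of 3345. Replicate numbers did not pair the libraries: deviations of same-numbered libraries correlated at -0.0167, -0.00821 and -0.00694. With the replicate number as a block 4731 genes were called, and no other count of genes moved by over 1.5 times.

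Of 182 genes named by rule and tested, 161 kept their direction and their side of the threshold in each alternative that tested them. Genes chosen after their values were seen were not part of this count. No scaling moved the median of all genes by more than 0.023 on the log2 scale. Reversals occurred for genes that did not pass: with limma-trend stmn2b came to 0.03 in place of -0.17. With each library left out, stmn2b ran from -0.55 to 0.45, gap43 from -4.40 to 1.93 and cav3 from -0.07 to 0.02. Of 910 list counts under the alternatives, 72 moved by over 1.5 times; the cause was not tested. Depth limits genes near 0 counts, such as pax7a, cebpa and fabp4a.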

Other observations

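Genes with a locus number alone are outside the lists, and the table of names gives no product for them. The following 4 were chosen after their values were seen. LOC134004684 had the largest increase of the abundant ones, at 128, 136 and 109.8 CPM in p77 cultures, against 0.839, 1.14 and 0.860 CPM in p27 cultures (log2 fold change 7.03 ± 0.22, edgeR adjusted p = 5.73e-18). It was higher in p77 cultures in the other states too, by 4.29 in proliferation, 3.40 in serum starvation and 5.34 in lipid loading. LOC133982361 was among the most abundant transcripts of the cultures, at 20494, 19034 and 20147 CPM in p77 cultures, against 5158, 6069 and 7075 CPM in p27 cultures (log2 fold change 1.71 ± 0.28, edgeR adjusted p = 2.86e-05); in proliferation it was lower in p77 cultures (-2.22 ± 0.36). LOC133984574 stood at 0.401, 0.382 and 0 CPM in p77 cultures, against 18.7, 12.2 and 17.8 CPM in p27 cultures (log2 fold change -5.85 ± 0.35, edgeR adjusted p = 9.8e-13), while in proliferation its difference was 0.29 ± 0.19 (edgeR adjusted p = 0.294). LOC133990210, the most abundant of those that fell by 2-fold or more, was at 1744, 1966 and 1802 CPM in p77 cultures, against 4916, 3995 and 3965 CPM in p27 cultures (log2 fold change -1.22 ± 0.10, edgeR adjusted p = 4.39e-10).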
